A study of Coturnix japonica with 24 samples.

Results

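The liver transcriptome of male Japanese quail (Coturnix japonica) at 16 hours of light per day was set against that at 8 hours of light. Samples of 12 male birds are described. All birds were first housed on long days of 16 hours of light and 8 of darkness. Per the labels they were then held on a long photoperiod of 16 hours (16v), a long photoperiod of 12 hours (12v) or a short photoperiod of 8 hours (8L). The comparison used every liver library with the label 16v or 8L, which gave 4 and 4 of the 24 libraries of liver and abdominal fat. Each library holds polyadenylated RNA of bulk liver, read as Nanopore cDNA after PCR. The labels give neither the age of the birds nor how long they were held, and they do not tie libraries to birds, so the p-values measure the spread between these libraries. The 4 libraries at 12v shared the fit and are given beside the result where they bear on it.

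Quail read day length in the hypothalamus, where long days raise the local conversion of thyroid hormone to its active form and set off gonadal growth and changes in feeding and fat storage. In birds the liver, and not the fat, makes most new fatty acids. It packs them into triglycerides, keeps some in lipid droplets and exports the rest in lipoproteins built on apolipoprotein B. The same cells make bile acids from cholesterol, store glycogen, turn surplus nitrogen into purines and uric acid, and secrete most plasma proteins.

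Total counts were 460596, 810796, 674349 and 867217 in 16v replicates 1 to 4, against 525035, 526837, 587059 and 696436 in 8L replicates 1 to 4. Levels are CPM: a gene's counts, summed over its transcripts, relative to library sizes scaled with TMM factors, and means are given ± SD over 4 libraries. Other features of the libraries move with the groups, and their part in the results was not tested. One is a score of 69 ribosomal protein genes, the main axis (first principal component) of their log2 CPM, with its sign set so that it falls as their mean log2 CPM rises. Their summed level was 89300 to 129000 CPM at 16v and 74900 to 115000 CPM at 8L, so the sums overlapped. The score was 9.25, 0.52, -1.08 and -1.55 in 16v replicates 1 to 4, against -2.99, -5.85, -6.33 and -3.26 in 8L replicates 1 to 4, so the groups did not overlap. Together with 12v replicates 1 and 3 (7.09 and 9.6), 16v replicate 1 stood apart from the other libraries. In addition, 75 loci in 5 sets with near-identical counts took 6.275% to 9.841% of the counts at 16v and 9.566% to 28.777% at 8L. Lastly, the 25 of 26 hepatocyte markers in the table summed to 95300 to 136000 CPM at 16v and to 139000 to 186000 CPM at 8L, with none at 0 throughout. ALB, serum albumin, was a large part of these sums (73900 ± 19200 CPM at 16v and 90200 ± 22100 CPM at 8L, overlapping). Of the 22 tested markers 7 had a log2 change above 0 and 15 below it. At an adjusted p under 0.05, 1 was higher and 1 lower. In bulk tissue fewer cells of a type and less RNA per cell cannot be told apart.

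Across all genes, 36 of the 4532 tested passed at an adjusted p under 0.05 with summed counts (0.794%), of which 17 were higher at 16v (0.375%) and 19 lower (0.419%). At an unadjusted p under 0.05 there were 965. In all 36 the 16v and 8L libraries did not overlap, as in 976 of all tested genes (21.5%; 9.84% higher and 11.7% lower). Their log2 changes were at least 1.43 in size. They held 32 genes with a symbol and 4 loci without, 3 of which share the reads of TEX14 and 1 those of S100A10. Those that fell include THRSP, CIDEC, PEMT, LDHA and AHSG, and those that rose include APOB, AKR1D1, SELENOP1 and EPAS1.

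The number that passed differed with the genes tested and with how their reads were counted. In the deposited table a read may stand on several transcripts of a gene, and the median tested gene had a sum 2.76 times the count of its largest transcript. The sum was over 5 times that count in 1206 of the 4532 tested genes. Of genes named below, these include PER2 (18.8 times), THRB (12.1), PPARA (11.1), NCOA4 (8.99), CPT1A (8.95), AGPAT3 (8.46) and RHEB (7.17). Reads of such genes may be fewer than their counts. When 1 transcript stood for each gene, 478 of 2601 tested genes passed (18.4%), 247 higher (9.5%) and 231 lower (8.88%). All 33 of the 36 that could be tested this way were among them. Summed counts tested over those 2601 genes alone gave 387. The 1973 genes tested with summed counts only had a median of 41 counts on their largest transcript over 12 libraries, against 220 for genes tested both ways. A gene that passed with 1 transcript only is named as such below, and its log2 change is then from that counting. Many such genes, FASN and MTTP among them, have 1 transcript in the table. Their own counts are the same both ways, and only the set of genes tested and the fit over it differ. Counts of list members below are to be read against the shares of all genes that passed.

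The count with summed counts also changed when any 1 library was left out, and the reason was not tested. It was 3, 0, 0 and 13 without 8L replicates 1 to 4, and 3, 3, 0 and 0 without 16v replicates 1 to 4. In these fits 769 to 975 genes still had an unadjusted p under 0.05. The count was 92, 15, 73 and 210 without 12v replicates 1 to 4. With 1 transcript per gene it was 90 to 403 when a 16v or 8L library was left out, lowest without 8L replicate 2, and 31 to 33 of the 33 genes still passed. Without the 3 libraries that stand apart it was 125 with summed counts and 558 with 1 transcript. Fitting the ribosomal protein score beside day length gave 3 and 110. The score did not overlap between 16v and 8L, so that fit cannot fully separate score from day length, here and in the lists below. Higher genes made up 47.2% of calls under TMM factors, 36.4% under relative log expression factors and 76.1% under library size alone. Those scalings put the median log2 change of all tested genes at 0.07, -0.03 and 0.33.

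**Figure D1:**
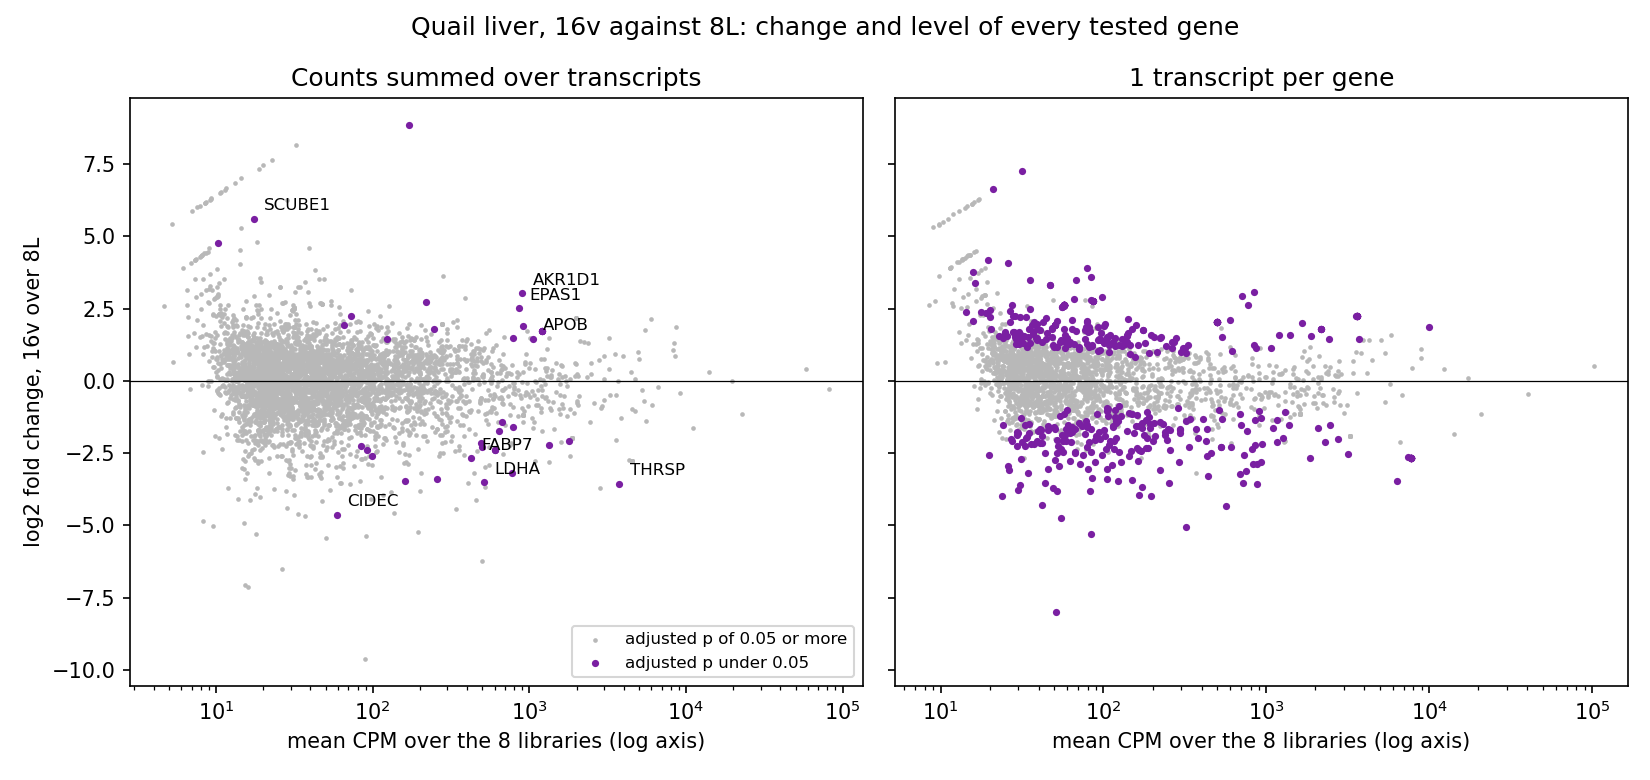
Log2 fold change (16v over 8L) against the mean CPM of the 8 libraries (log axis) for every tested gene, with summed counts on the left and 1 transcript per gene on the right. Purple points passed: 36 of 4532 on the left and 478 of 2601 on the right, on both sides of 0.

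Several genes of fatty acid synthesis were lower at 16v. THRSP, a nuclear regulator of lipogenic genes that responds to thyroid hormone and carbohydrate, had 179, 991, 603 and 569 CPM in 16v replicates 1 to 4, against 6550, 7470, 9370 and 4320 CPM in 8L replicates 1 to 4. Every 16v library was thus below every 8L library, with the lowest value in 16v replicate 1. THRSP fell by 3.56 ± 0.65 (SE) on the log2 scale (adjusted p = 0.0258). Its change was -2.49 in the fit that held the ribosomal protein score, where it passed (adjusted p = 0.0441), as did 3 genes in all, 2 of them among the 36.

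ACLY, the enzyme that splits citrate into cytosolic acetyl-CoA, had 215, 390, 435 and 570 CPM at 16v and 5820, 5880, 6340 and 2850 CPM at 8L. The groups did not overlap, and 8L replicate 4 was the lowest 8L library. ACLY counts summed over transcripts were 19 times those of its largest transcript. If reads were counted on several transcripts, which is not stated, its CPM is inflated. ACLY passed with 1 transcript only (-3.55 ± 0.63, adjusted p = 0.012, against 0.0922 with summed counts). FASN, the fatty acid synthase, averaged 688 ± 310 CPM at 16v and 2170 ± 664 CPM at 8L and passed the same way (-1.54 ± 0.47, adjusted p = 0.0402). SCD, the desaturase that makes oleate, averaged 17.5 ± 15 CPM at 16v and 135 ± 84.2 CPM at 8L (-2.80 ± 0.71, adjusted p = 0.0226, 1 transcript only). Outside the list of fatty acid synthesis genes, ACSBG2, which activates long-chain fatty acids, averaged 198 ± 121 CPM at 16v and 1160 ± 247 CPM at 8L (-2.43 ± 0.47, adjusted p = 0.0122, 1 transcript only).

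One list member passed in the opposite direction. ACSL1, the main acyl-CoA synthetase of liver, averaged 855 ± 78.9 CPM at 16v and 363 ± 215 CPM at 8L (1.33 ± 0.43, adjusted p = 0.0444, 1 transcript only). Neither counting passed ACACA, ME1 or SREBF1. ACACA, the acetyl-CoA carboxylase that commits carbon to fatty acids, averaged 367 ± 123 CPM at 16v and 773 ± 409 CPM at 8L (-1.07 ± 0.44, adjusted p = 0.183). ME1, a source of NADPH, averaged 579 ± 465 CPM at 16v and 1570 ± 594 CPM at 8L (-1.44 ± 0.64, adjusted p = 0.214). SREBF1, the transcription factor of the pathway, had 10.3 to 29.6 CPM at 16v and 52.9 to 73.2 CPM at 8L (-1.41 ± 0.62, adjusted p = 0.207), with no overlap. MLXIPL, which encodes the carbohydrate sensor ChREBP, had too few counts for the test, with 0 to 2.4 CPM at 16v and 0 to 21.5 CPM at 8L.

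Of the 19 tested fatty acid synthesis genes, 1 passed with summed counts, lower. With 1 transcript 1 was higher and 4 lower, against 9.5% and 8.88% of all genes. The 19 genes had a median log2 change of -0.69, against 0.07 over all tested genes. Without the 3 libraries that stand apart 2 were higher and 5 lower with 1 transcript, and with the ribosomal protein score 0 and 2. With library size alone 4 were higher and 3 lower with 1 transcript, at a median of -0.24. The genes were listed with earlier results of these samples known, so their count is not independent evidence of a direction.

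Lipid droplet genes that passed were lower too. CIDEC, which fuses droplets into larger ones, had 2.26, 2.28, 5.38 and 7.2 CPM in 16v replicates 1 to 4, against 92, 64.6, 108 and 193 CPM in 8L replicates 1 to 4. It was close to absent in every 16v library and fell by 4.63 ± 0.82 (adjusted p = 0.0241). FABP7, a fatty acid binding protein best known from brain, had 97.3, 171, 124 and 70.8 CPM at 16v and 771, 579, 1120 and 485 CPM at 8L. The highest 16v library was below the lowest 8L library, and FABP7 fell by 2.67 ± 0.37 (adjusted p = 0.0175).

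PLIN2, the coat protein of liver droplets, had 99.5, 181, 102 and 93.6 CPM at 16v and 260, 358, 316 and 507 CPM at 8L. It passed with 1 transcript only (-1.62 ± 0.39, adjusted p = 0.0204), as did G0S2, an inhibitor of the lipase ATGL, with 147 ± 67.4 CPM at 16v and 785 ± 360 CPM at 8L (-2.35 ± 0.57, adjusted p = 0.0213). CIDEA, a relative of CIDEC, averaged 6.95 ± 6.77 CPM at 16v and 45 ± 17.3 CPM at 8L (-2.48 ± 0.78, adjusted p = 0.0444, 1 transcript only). FABP1, the fatty acid binding protein of hepatocytes, averaged 1040 ± 517 CPM at 16v and 2450 ± 845 CPM at 8L and did not pass (adjusted p = 0.109 and, with 1 transcript, 0.0556). Over all genes 0.419% were lower with summed counts and 8.88% with 1 transcript. Of the 10 tested genes in the group 2 passed with summed counts and 5 with 1 transcript, all lower (median log2 change -1.41). With 1 transcript 5 also passed without the 3 libraries that stand apart, and 2 with the ribosomal protein score.

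Among genes of triglyceride and phospholipid synthesis PEMT stood out. It encodes the liver enzyme that methylates phosphatidylethanolamine to phosphatidylcholine. Its levels were 18.1, 38.8, 26.9 and 21.6 CPM in 16v replicates 1 to 4, against 230, 390, 290 and 266 CPM in 8L replicates 1 to 4. The highest 16v value was far below the lowest 8L value, and PEMT fell by 3.46 ± 0.61 (adjusted p = 0.0241). PCYT2, of phosphatidylethanolamine synthesis, averaged 7.71 ± 5.35 CPM at 16v and 37.9 ± 11 CPM at 8L (-2.08 ± 0.52, adjusted p = 0.0222, 1 transcript only). LPIN2, a phosphatidate phosphatase, went the other way, with 497 ± 185 CPM at 16v and 217 ± 75 CPM at 8L (1.23 ± 0.41, adjusted p = 0.0498, 1 transcript only). AGPAT3, an acyltransferase, also had all 16v libraries above 8L (595 ± 260 CPM at 16v and 247 ± 50.9 CPM at 8L) but did not pass (adjusted p = 0.108 and, with 1 transcript, 0.0516). The 13 tested genes had a median log2 change of -0.98. Over the 9 of them tested with 1 transcript the median was -0.35, and it was 0.05 with library size alone.

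Lipoprotein genes did not move together. APOB, the structural protein of very low density lipoproteins, had 1600, 1570, 1230 and 1750 CPM in 16v replicates 1 to 4, against 695, 498, 551 and 496 CPM in 8L replicates 1 to 4. All 16v libraries were above all 8L libraries, within a narrow range in each group, and APOB rose by 1.46 ± 0.26 (adjusted p = 0.0257). MTTP, which loads lipid onto apolipoprotein B, was lower, with 15.8, 19.4, 14.8 and 16.8 CPM at 16v and 71.3, 92.3, 101 and 51.5 CPM at 8L. It passed with 1 transcript only (-2.11 ± 0.37, adjusted p = 0.012; adjusted p = 0.0522 with summed counts). ANGPTL4, an inhibitor of lipoprotein lipase, averaged 9.86 ± 7.03 CPM at 16v and 51.1 ± 25.6 CPM at 8L (-2.25 ± 0.56, adjusted p = 0.0222, 1 transcript only). Of the 11 tested lipoprotein genes, 3 had a log2 change above 0 and 8 below it (median -0.51). With 1 transcript 1 passed higher and 2 lower, against 9.5% and 8.88% of all genes. In that counting 1 and 1 passed with the ribosomal protein score, and 2 and 2 with library size alone.

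**Figure D2:**
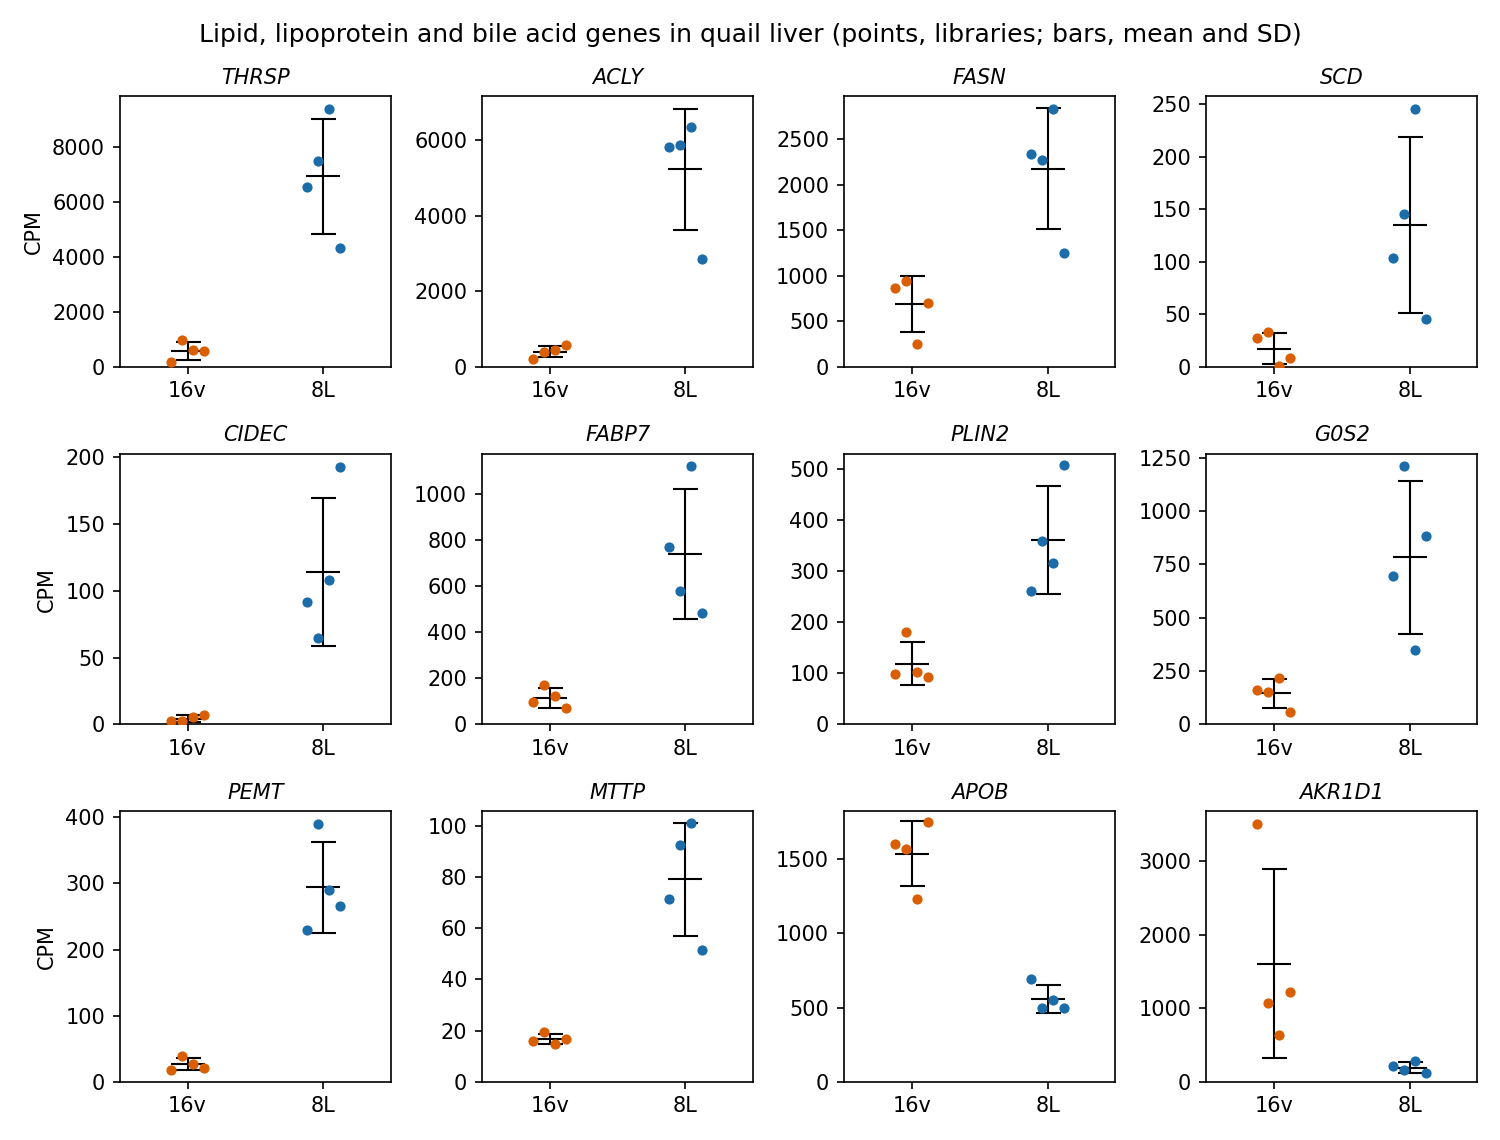
CPM of 12 genes of lipid synthesis, droplets, lipoproteins and bile acids in the 4 libraries at 16v (orange) and the 4 at 8L (blue), with the mean and SD in black and axes from 0. The groups do not overlap in any panel, as in 21.5% of all tested genes. APOB and AKR1D1 are higher at 16v and the other 10 genes lower. The 12 genes were picked for display. ACACA, ME1, FABP1 and CYP7A1, whose groups overlapped, are not drawn, nor are ACSL1 and LPIN2, which passed higher with 1 transcript only.

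In cholesterol synthesis 3 of the 15 tested genes passed, lower and with 1 transcript only, where 18.4% of all genes passed and 8.88% were lower. DHCR7, the last enzyme of the pathway, averaged 46.1 ± 33.7 CPM at 16v and 273 ± 58.7 CPM at 8L (-2.36 ± 0.52, adjusted p = 0.015). NSDHL, a sterol dehydrogenase, averaged 15.6 ± 5.63 CPM at 16v and 54.1 ± 29 CPM at 8L (-1.66 ± 0.42, adjusted p = 0.0222). SREBF2, the transcription factor of sterol synthesis, averaged 15.9 ± 7.12 CPM at 16v and 57.5 ± 19.5 CPM at 8L (-1.76 ± 0.48, adjusted p = 0.0308). The group's median log2 change was -0.93, with 1 member above 0. Without the 3 libraries that stand apart 7 were lower with 1 transcript, and with the ribosomal protein score 1.

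Bile acid genes that passed were higher. AKR1D1, the reductase that shapes the steroid ring of bile acids, had 3510, 1070, 639 and 1220 CPM in 16v replicates 1 to 4, against 221, 159, 286 and 115 CPM in 8L replicates 1 to 4. The groups did not overlap, and 16v replicate 1, which stands apart by its ribosomal protein score, was by far the highest. AKR1D1 rose by 3.04 ± 0.57 (adjusted p = 0.0317). Its change was 2.38 without the 3 libraries that stand apart (adjusted p = 0.0374). CYP7B1, of the alternative route to bile acids, averaged 104 ± 17.9 CPM at 16v and 40.4 ± 15.5 CPM at 8L (1.44 ± 0.34, adjusted p = 0.0201, 1 transcript only). AMACR, a racemase of bile acid side chains, averaged 65.1 ± 23 CPM at 16v and 30.5 ± 7.66 CPM at 8L (1.19 ± 0.39, adjusted p = 0.049, 1 transcript only). HSD17B4, the peroxisomal enzyme that acts after AMACR and was listed among steroid genes, averaged 595 ± 128 CPM at 16v and 294 ± 50.5 CPM at 8L (1.12 ± 0.27, adjusted p = 0.0216, 1 transcript only).

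CYP7A1, which sets the rate of the classic route, overlapped between groups at 6.73 to 66.1 CPM at 16v and 9.21 to 47.3 CPM at 8L (0.24 ± 0.76, adjusted p = 0.896). Of the 9 bile acid genes tested 6 were above 0, with a median log2 change of 0.74. Without the 3 libraries that stand apart the median over 12 tested genes was -0.13. With 1 transcript 3 of 7 passed, all higher, against 9.5% higher over all genes. Without the 3 libraries that stand apart 3 bile acid genes passed higher, and with the ribosomal protein score 2.

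Glycolytic genes that passed were lower at 16v. LDHA, the lactate dehydrogenase subunit of glycolytic tissue, had 127, 75.2, 35 and 94.8 CPM in 16v replicates 1 to 4, against 1030, 743, 1820 and 179 CPM in 8L replicates 1 to 4. The 8L values ran over a wide range, with replicate 4 nearest to 16v but still above it. LDHA fell by 3.51 ± 0.61 (adjusted p = 0.0241). GAPDH, which oxidises glyceraldehyde phosphate, had 65.6, 322, 303 and 412 CPM at 16v and 1920, 2400, 2150 and 1110 CPM at 8L, again with no overlap. It passed with 1 transcript only (-2.68 ± 0.75, adjusted p = 0.0343), as did TPI1, triosephosphate isomerase (84.3 ± 50.1 CPM at 16v and 359 ± 86.7 CPM at 8L; -1.98 ± 0.55, adjusted p = 0.0328). All 9 tested glycolysis genes had a log2 change below 0 (median -1.40), and 1 passed with summed counts. With 1 transcript 3 of 7 passed, all lower, against 8.88% lower over all genes. Without the 3 libraries that stand apart 5 glycolysis genes passed lower, and with the ribosomal protein score 1.

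Glycogen genes went both ways. PHKG1, the catalytic subunit of phosphorylase kinase, had 13.6, 43.3, 26.9 and 26.4 CPM at 16v and 115, 198, 258 and 115 CPM at 8L and fell by 2.61 ± 0.45 (adjusted p = 0.0241). PGM1, which links glucose 1-phosphate and glucose 6-phosphate, had 22.6, 36.5, 32.3 and 24 CPM at 16v and 152, 125, 170 and 109 CPM at 8L and fell by 2.25 ± 0.40 (adjusted p = 0.0241). Neither gene overlapped between groups. UGP2, which makes UDP-glucose, and PPP1R3B, which brings a phosphatase to glycogen, passed lower with 1 transcript only (-1.40 ± 0.39, adjusted p = 0.0324, and -1.45 ± 0.44, adjusted p = 0.0397). UGP2 reached the 16v level in 8L replicate 4 (285 CPM, against 239 to 348 CPM at 16v). PPP1R3C, another such targeting subunit, was higher, with 33.9, 72.9, 95.5 and 61.2 CPM at 16v and 23, 20.8, 25.8 and 14.7 CPM at 8L (1.75 ± 0.37, adjusted p = 0.0143, 1 transcript only). PGM2, a phosphoglucomutase that also acts on pentoses, was higher as well (179 ± 78 CPM at 16v and 68.8 ± 12 CPM at 8L; 1.47 ± 0.42, adjusted p = 0.0368, 1 transcript only), although 16v replicate 3 lay within the 8L range. Of 12 tested glycogen genes 2 passed with summed counts, both lower. With 1 transcript 2 of 10 were higher and 4 lower, against 9.5% and 8.88% of all genes. The median log2 change of the glycogen genes was 0.20 with summed counts and -0.34 with 1 transcript.

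In glucose release, G6PC, the glucose 6-phosphatase, had 36.2, 124, 145 and 130 CPM at 16v and 720, 734, 805 and 346 CPM at 8L. It passed with 1 transcript only (-2.60 ± 0.68, adjusted p = 0.0264). FBP2, a fructose bisphosphatase best known from muscle, was higher (23.5 ± 11.7 CPM at 16v and 6.14 ± 2 CPM at 8L; 2.04 ± 0.61, adjusted p = 0.0392, 1 transcript only), with 16v replicate 1 within the 8L range. These were the only calls among 13 tested genes of gluconeogenesis and fructose metabolism with 1 transcript, and with summed counts 0 of 14 passed. SLC37A4, the transporter that feeds G6PC, had all 16v libraries above 8L (337 ± 61.2 CPM at 16v and 207 ± 32.9 CPM at 8L) and did not pass (adjusted p = 0.168). PCK1, which starts gluconeogenesis, overlapped at 13.6 to 35.3 CPM at 16v and 0 to 73.2 CPM at 8L (0.27 ± 1.09, adjusted p = 0.919).

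Genes of fatty acid oxidation were mixed. ACAA2, the last enzyme of the mitochondrial cycle, averaged 208 ± 47.5 CPM at 16v and 88 ± 26.3 CPM at 8L (1.36 ± 0.33, adjusted p = 0.0204, 1 transcript only). PDK4, which holds pyruvate back from oxidation, had 4.52, 19.4, 21.5 and 20.4 CPM at 16v and 0, 4.62, 0 and 1.47 CPM at 8L (3.38 ± 1.09, adjusted p = 0.0444, 1 transcript only). Its groups overlapped slightly, through 16v replicate 1. HADHA and ETFA were lower, again with 1 transcript only. HADHA, of the trifunctional protein, had 2.26 to 56.5 CPM at 16v and 126 to 186 CPM at 8L (-2.58 ± 0.75, adjusted p = 0.0372). ETFA, which passes electrons from the cycle to the respiratory chain, had 0 to 32.3 CPM at 16v and 82.8 to 120 CPM at 8L (-2.35 ± 0.73, adjusted p = 0.0412).

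CPT1A, the gate of fatty acid entry, had 0 to 192 CPM at 16v and 58.1 to 187 CPM at 8L, with a log2 difference whose sign changed with the processing (-0.13 ± 0.98, adjusted p = 0.961). The receptor PPARA, which drives these genes in mammals, averaged 415 ± 48.8 CPM at 16v and 389 ± 128 CPM at 8L (0.10 ± 0.30, adjusted p = 0.892). With the ribosomal protein score 0 of the 20 oxidation genes tested with 1 transcript passed. Without it 2 were higher and 3 lower, against 9.5% and 8.88% of all genes, and with library size alone 3 and 1. The oxidation genes had a median of -0.28 over 21 with summed counts, and -0.02 with library size alone. With 1 transcript it was -0.26, and 0.14 with library size alone.

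SIRT4, a mitochondrial sirtuin that restrains oxidative metabolism in mammals, had 651, 219, 311 and 338 CPM at 16v and 110, 41.5, 25.8 and 51.5 CPM at 8L. All 16v libraries were higher, 16v replicate 1 most, and SIRT4 rose by 2.72 ± 0.50 (adjusted p = 0.0263). SIRT4 counts summed over transcripts were 6.06 times those of its largest transcript, so its reads may be fewer than its counts. HIBADH, of valine breakdown, had 149, 90, 74 and 104 CPM at 16v and 25.3, 27.7, 36.6 and 19.1 CPM at 8L, also without overlap. It rose by 1.94 ± 0.40 (adjusted p = 0.0431).

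Of 74 tested respiratory chain genes 52 had a log2 change below 0 (median -0.54; -0.25 with library size alone), and 0 passed with summed counts. With 1 transcript 13 of 72 passed lower and 1 higher, against 8.88% lower and 9.5% higher over all genes. With library size alone 7 were lower and 6 higher that way, at a median of -0.06. They include the ATP synthase genes ATP5D (113 ± 36.8 CPM at 16v and 600 ± 138 CPM at 8L; -2.30 ± 0.51, adjusted p = 0.0153), ATP5B (77.1 ± 31 CPM at 16v and 265 ± 51.5 CPM at 8L; -1.67 ± 0.38, adjusted p = 0.0196), ATP5G2, ATP5J2 and the inhibitor ATPIF1. Complex I gave NDUFS8 (60.2 ± 7.73 CPM at 16v and 178 ± 42.9 CPM at 8L; -1.46 ± 0.35, adjusted p = 0.0204), NDUFA12, NDUFS7, NDUFA2, NDUFB2 and NDUFB4. SDHB of complex II averaged 47.3 ± 21.7 CPM at 16v and 189 ± 22.5 CPM at 8L (-1.90 ± 0.48, adjusted p = 0.0222), and UQCRQ belongs to complex III. NDUFV3 was the gene that passed higher (213 ± 55.1 CPM at 16v and 93.7 ± 63.1 CPM at 8L; 1.55 ± 0.46, adjusted p = 0.0379), with overlap between groups. DLAT, of the pyruvate dehydrogenase complex, averaged 34.6 ± 13.9 CPM at 16v and 102 ± 24.9 CPM at 8L (-1.45 ± 0.37, adjusted p = 0.0238, 1 transcript only). In the fit with that score 1 respiratory chain gene passed, lower, and 15 lower and 2 higher passed without the 3 libraries that stand apart.

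**Figure D3:**
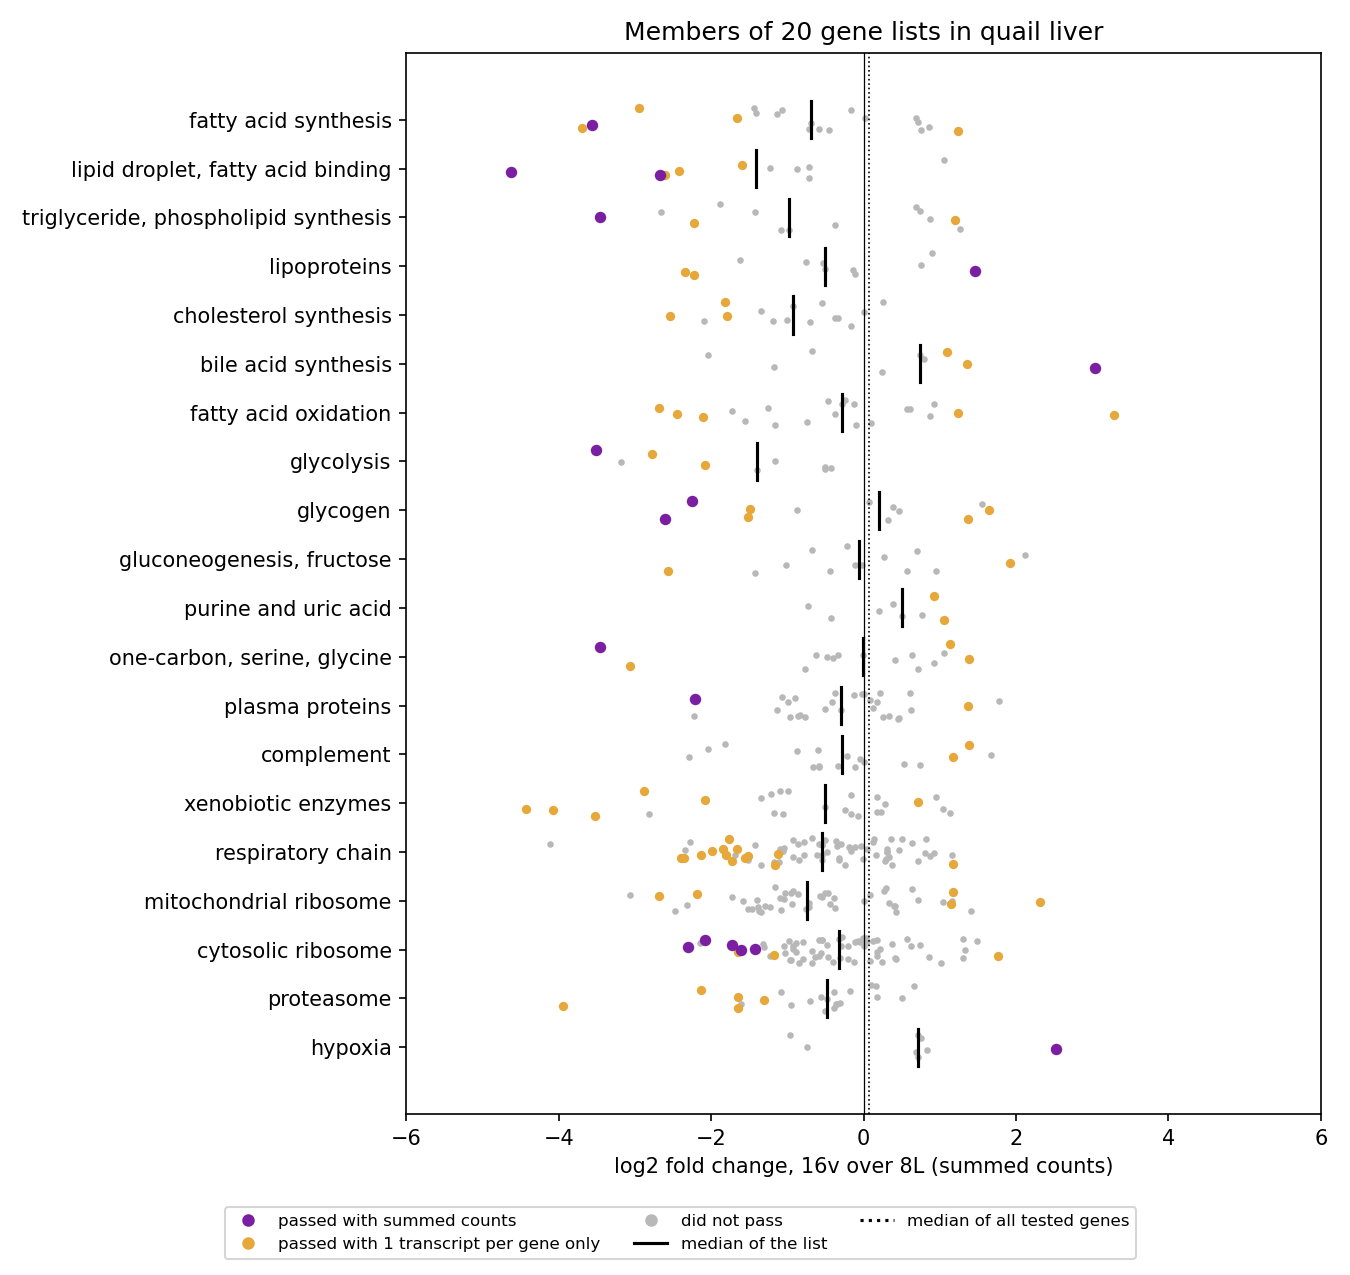
Log2 fold change (16v over 8L, summed counts) of every tested member of gene lists, with each list's median as a black bar and the median of all tested genes, 0.07, as a dotted line. Purple members passed with summed counts, orange ones with 1 transcript per gene only; glycolysis lies wholly below 0, and SERPING1 lies off the axis among plasma proteins.

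Nitrogen genes were mixed, and some were higher. PPAT, which commits carbon to purines and in birds thus to uric acid, had 267, 224, 194 and 244 CPM at 16v and 113, 106, 146 and 83.8 CPM at 8L (1.15 ± 0.31, adjusted p = 0.0308, 1 transcript only). GART, of the next steps, averaged 4600 ± 1530 CPM at 16v and 2420 ± 430 CPM at 8L (1.05 ± 0.31, adjusted p = 0.0397, 1 transcript only). PAICS, further down the path, averaged 11200 ± 3320 CPM at 16v and 5360 ± 962 CPM at 8L without overlap and did not pass (adjusted p = 0.132 and, with 1 transcript, 0.0516). Summed counts were 10.2 times those of the largest transcript for GART and 7.99 times for PAICS, so reads may be fewer than counts. Of the 9 purine genes 7 were above 0 (median 0.50), and 0 passed with summed counts. With 1 transcript 2 of 9 were higher and 0 lower, against 9.5% and 8.88% of all genes. The alanine transaminase GPT2, the methionine adenosyltransferase MAT1A and the glycine decarboxylase GLDC passed higher with 1 transcript only (1.51 ± 0.39, 1.24 ± 0.34 and 1.47 ± 0.40; adjusted p = 0.0238, 0.0298 and 0.0292). AMT, the partner of GLDC in glycine cleavage, was lower, with 2.97 ± 2.07 CPM at 16v and 27.1 ± 15.7 CPM at 8L (-2.94 ± 0.71, adjusted p = 0.0204, 1 transcript only). With 1 transcript 1 of 16 amino acid breakdown genes was higher and 0 lower. Of the 19 tested with summed counts 12 were below 0 (median -0.35). Of 15 one-carbon, serine and glycine genes 2 were higher and 2 lower with 1 transcript (median -0.01 with summed counts).

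SLC7A2, a transporter of arginine and lysine, had 500, 228, 525 and 282 CPM at 16v and 80.5, 102, 153 and 102 CPM at 8L. The groups did not overlap, and it rose by 1.81 ± 0.38 (adjusted p = 0.0485). GGACT, which breaks down crosslinks between glutamate and lysine side chains, had 67.9, 397, 56.5 and 86.4 CPM at 16v and 907, 1500, 1790 and 1390 CPM at 8L. Replicate 2 at 16v was well above the other 3, and GGACT fell by 3.19 ± 0.65 (adjusted p = 0.0431). Summed counts were 11.4 times those of the largest transcript for SLC7A2 and 5.89 times for GGACT, so reads may be fewer than counts.

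Secreted liver proteins were led by LEAP2, a peptide that kills bacteria and in mammals blocks the ghrelin receptor. LEAP2 had 27.1, 70.7, 47.1 and 32.4 CPM at 16v and 343, 637, 592 and 321 CPM at 8L. The lowest 8L library was well above the highest 16v library, and LEAP2 fell by 3.40 ± 0.59 (adjusted p = 0.0241). AvBD10, an avian beta-defensin, had 400 to 642 CPM at 16v and 2780 to 3700 CPM at 8L (-2.52 ± 0.76, adjusted p = 0.0397, 1 transcript only). AvBD9, another defensin and among the most counted genes, overlapped at 29800 to 86900 CPM at 16v and 39000 to 59400 CPM at 8L (0.41 ± 0.51, adjusted p = 0.675).

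AHSG, the plasma glycoprotein fetuin-A, had 351, 431, 468 and 660 CPM at 16v and 1280, 3220, 2030 and 2290 CPM at 8L and fell by 2.21 ± 0.40 (adjusted p = 0.0257). SERPING1, the C1 inhibitor of complement, had no count in any 16v library, against 186, 152, 200 and 176 CPM at 8L. A floor of 3 reads over the 4 libraries is 3.11 CPM if each read was counted on all 3 transcripts, which is not stated. Against that floor SERPING1 was at least 57.6-fold lower at 16v. It passed with 1 transcript only (adjusted p = 0.0143), and not with the ribosomal protein score (adjusted p = 0.215 and, with 1 transcript, 0.0723). At 12v it had 0 CPM in replicates 1 to 3 and 147 CPM in replicate 4. VTN, vitronectin, averaged 482 ± 153 CPM at 16v and 2230 ± 521 CPM at 8L (-2.12 ± 0.64, adjusted p = 0.0397, 1 transcript only). FGB, the fibrinogen beta chain, was higher, with 2400, 1470, 4760 and 3460 CPM at 16v and 1330, 1300, 1330 and 702 CPM at 8L (1.46 ± 0.44, adjusted p = 0.0397, 1 transcript only). The complement genes C5 and the protease MASP1 were also higher that way (1.34 ± 0.34, adjusted p = 0.0222, and 1.48 ± 0.37, adjusted p = 0.0223).

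Neither ALB, serum albumin (73900 ± 19200 CPM at 16v and 90200 ± 22100 CPM at 8L; adjusted p = 0.711), nor TTR, transthyretin (14100 ± 8710 CPM at 16v and 31100 ± 9920 CPM at 8L; adjusted p = 0.189), passed. TTR had 27000 CPM in 16v replicate 1 and 8670 to 11900 CPM in the other 16v libraries. Without the 3 libraries that stand apart TTR passed lower (-1.59, adjusted p = 0.0481, and -1.69, adjusted p = 0.0248, with 1 transcript). With the ribosomal protein score TTR passed lower with 1 transcript only (-1.98, adjusted p = 0.0334, against 0.079 with summed counts). Of 31 tested plasma protein genes 1 passed with summed counts. With 1 transcript 1 was higher and 3 lower, against 9.5% and 8.88% of all genes. The median of the 31 was -0.29, and 0.00 with library size alone.

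Selenium and redox genes included a neighbouring pair. SELENOP1, which carries selenium from liver to other tissues, had 1390, 1160, 980 and 1080 CPM at 16v and 428, 420, 508 and 282 CPM at 8L, and rose by 1.49 ± 0.30 (adjusted p = 0.0389). CCDC152 had 1820, 1550, 1180 and 1220 CPM at 16v and 497, 268, 398 and 375 CPM at 8L, and rose by 1.91 ± 0.34 (adjusted p = 0.0241). Both were above 8L in every 16v library. CCDC152 overlaps the selenoprotein P gene in the quail RefSeq annotation (assembly Coturnix japonica 2.1), so reads of the pair may be shared. That annotation holds 0 of the 46968 transcript accessions of the deposited data, so whether the counted transcripts overlap was not tested. The superoxide dismutase SOD1, the glutathione synthesis subunit GCLC and the methionine sulfoxide reductase MSRB1 passed lower with 1 transcript only (-1.27 ± 0.41, -1.16 ± 0.37 and -2.71 ± 0.80; adjusted p = 0.0444, 0.0428 and 0.0375). Of iron genes, the heme oxygenase HMOX1 was lower (11.7 ± 7.15 CPM at 16v and 91.3 ± 16.3 CPM at 8L; -2.81 ± 0.68, adjusted p = 0.0213) and NCOA4, which sends ferritin to lysosomes, higher (476 ± 94.5 CPM at 16v and 228 ± 51.2 CPM at 8L; 1.09 ± 0.31, adjusted p = 0.035), both with 1 transcript only. Of 22 tested antioxidant and selenium genes, SELENOP1 and CCDC152 were the 2 that passed with summed counts.

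Detoxifying enzymes passed with 1 transcript only, 1 higher and 5 lower of 23, where 9.5% of all genes were higher and 8.88% lower; with the ribosomal protein score 1 was higher and 0 lower. CYP2C18 had 9.05, 6.84, 84.8 and 18 CPM at 16v and 608, 967, 800 and 222 CPM at 8L (-4.32 ± 1.25, adjusted p = 0.0374), and CYP3A5 averaged 9.58 ± 10.4 CPM at 16v and 116 ± 88.3 CPM at 8L (-3.38 ± 1.02, adjusted p = 0.0397). Both are cytochromes P450 of drug and steroid oxidation. SULT1B1, a sulfotransferase that acts on thyroid hormones in mammals, had 0, 0, 1.34 and 3.6 CPM at 16v and 39.1, 20.8, 23.7 and 20.6 CPM at 8L (-3.98 ± 0.80, adjusted p = 0.0126). The epoxide hydrolase EPHX2 (-2.75 ± 0.59, adjusted p = 0.0143) and the glutathione transferase MGST3 (-1.99 ± 0.50, adjusted p = 0.0222) complete the lower genes, and the fatty acid hydroxylase CYP4V2 was higher (0.81 ± 0.26, adjusted p = 0.0444). Over 25 genes with summed counts the median was -0.50 and 0 passed. With the ribosomal protein score 1 of the 23 was higher and 0 lower. HPGDS, a glutathione-dependent prostaglandin D synthase, passed with summed counts. It had 18.1, 20.5, 48.4 and 30 CPM at 16v and 170, 164, 94.7 and 185 CPM at 8L, and fell by 2.38 ± 0.42 (adjusted p = 0.0241).

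Of regulators and hormone genes EPAS1, the gene of the oxygen-sensitive transcription factor HIF-2alpha, had 1560, 1580, 1380 and 1320 CPM at 16v and 394, 249, 256 and 121 CPM at 8L. The 16v libraries lay close together and far above 8L, and EPAS1 rose by 2.52 ± 0.41 (adjusted p = 0.0241). It was the 1 of 8 tested hypoxia genes that passed. Thyroid genes other than THRSP did not pass with either counting. TTR, also on the thyroid list, passed lower in some other fits, as given above. DIO1, the deiodinase of liver, averaged 152 ± 34.5 CPM at 16v and 120 ± 51.6 CPM at 8L (adjusted p = 0.74). DIO2, which activates thyroid hormone, had 22.8 to 157 CPM at 16v and 34.5 to 258 CPM at 8L (adjusted p = 0.365), and the receptor THRB 46.8 to 176 CPM at 16v and 102 to 168 CPM at 8L (adjusted p = 0.972). DIO3, which inactivates the hormone, had too few counts for the test (0 to 4.04 CPM at 16v and 0 to 10.3 CPM at 8L).

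In the growth hormone axis IGFBP7, an IGF binding protein of vessels, passed higher with 1 transcript only (210 ± 45.3 CPM at 16v and 98.3 ± 36.6 CPM at 8L; 1.21 ± 0.37, adjusted p = 0.0397). GHR, the growth hormone receptor, averaged 30.1 ± 15.3 CPM at 16v and 43.6 ± 17.2 CPM at 8L (adjusted p = 0.633). IGFBP1 averaged 20.4 ± 9.32 CPM at 16v and 7.2 ± 3.62 CPM at 8L (adjusted p = 0.256), and IGFBP2 32.9 ± 19.6 CPM at 16v and 25.2 ± 13.9 CPM at 8L (adjusted p = 0.842). IGF1 itself had 0 CPM at 16v and at most 2.31 CPM at 8L, too few for the test. ESR1, the estrogen receptor of egg-yolk synthesis, had 0 to 1.34 CPM at 16v and 0 to 2.3 CPM at 8L, and PPARG, of fat cells, 8.07 to 27.1 CPM at 16v and 1.47 to 27.7 CPM at 8L (adjusted p = 0.943). Of the 6 clock genes tested 0 passed, and with 1 transcript 0 of 3; PER2 averaged 228 ± 153 CPM at 16v and 386 ± 88.4 CPM at 8L (adjusted p = 0.348).

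With summed counts 5 of 69 tested genes of cytosolic ribosomal proteins passed lower, against 0.419% of all genes. RPS13 had 342, 296, 288 and 262 CPM at 16v and 727, 1190, 1080 and 915 CPM at 8L, and fell by 1.72 ± 0.31 (adjusted p = 0.0241). RPL21, RPL36A and RPL24 fell by 2.08 ± 0.42, 1.61 ± 0.32 and 1.43 ± 0.29 (adjusted p = 0.0431, 0.0406 and 0.0431). With 1 transcript RPS10 and RPS27 were lower as well (-1.54 ± 0.42 and -1.08 ± 0.34, adjusted p = 0.0307 and 0.0421). That made 7 of 69 lower and 1 higher with 1 transcript, against 8.88% and 9.5% of all genes. RPL37 was higher that way (1.86 ± 0.62, adjusted p = 0.0493), with 19300 CPM in 16v replicate 1, 4410 to 5240 CPM in the other 16v libraries and 2110 to 3140 CPM at 8L. The ribosomal protein score is made from these genes, so they are no independent measure of it. The median over the 69 genes was -0.32, and -0.07 with library size alone; with 1 transcript it was -0.29, and 0.09 with library size alone.

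Elsewhere in protein synthesis and turnover, calls came with 1 transcript only. EEF2, the elongation factor that moves the ribosome, had 52 to 84 CPM at 16v and 169 to 274 CPM at 8L (-1.70 ± 0.34, adjusted p = 0.0122). RHEB, the GTPase that activates mTORC1, was higher, with 704 to 891 CPM at 16v and 325 to 428 CPM at 8L (0.93 ± 0.27, adjusted p = 0.035). EIF3K, an initiation factor subunit, was lower (-1.89 ± 0.59, adjusted p = 0.0413). That made 1 higher and 2 lower of 31 genes on the translation list, against 9.5% and 8.88% of all genes. Of 23 proteasome genes 6 were lower (8.88% of all genes were), and 1 with the ribosomal protein score. The 6 are PSMB5 (13.5 ± 12.1 CPM at 16v and 219 ± 70.7 CPM at 8L; -3.71 ± 0.69, adjusted p = 0.0122), PSMA7, PSMB3, PSMA1, PSMB2 and PSMC6, and 0 were higher. The stress factor ATF4 (-2.45 ± 0.53, adjusted p = 0.0143), and the chaperones CALR (-3.08 ± 0.78, adjusted p = 0.0225, with overlap in 8L replicate 4) and HSPA8 (-1.02 ± 0.31, adjusted p = 0.0397) were lower, and SEL1L, of the degradation of misfolded proteins, was higher (1.25 ± 0.37, adjusted p = 0.038). Of 15 endoplasmic reticulum chaperone and stress genes 1 was higher and 2 lower, and of 7 heat shock genes 0 and 1. Of 47 mitochondrial ribosome genes, MRPL51, MRPL17 and MRPL50 were higher and MRPS21 and MRPS25 lower. Both shares are below those of all genes (9.5% higher and 8.88% lower). The balance turned to 1 higher and 7 lower with relative log expression factors, and to 2 and 9 without the 3 libraries that stand apart. It was 3 higher and 0 lower with the ribosomal protein score, and 4 and 2 with library size alone. With summed counts 0 of 50 passed, at a median log2 change of -0.74.

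**Figure D4:**
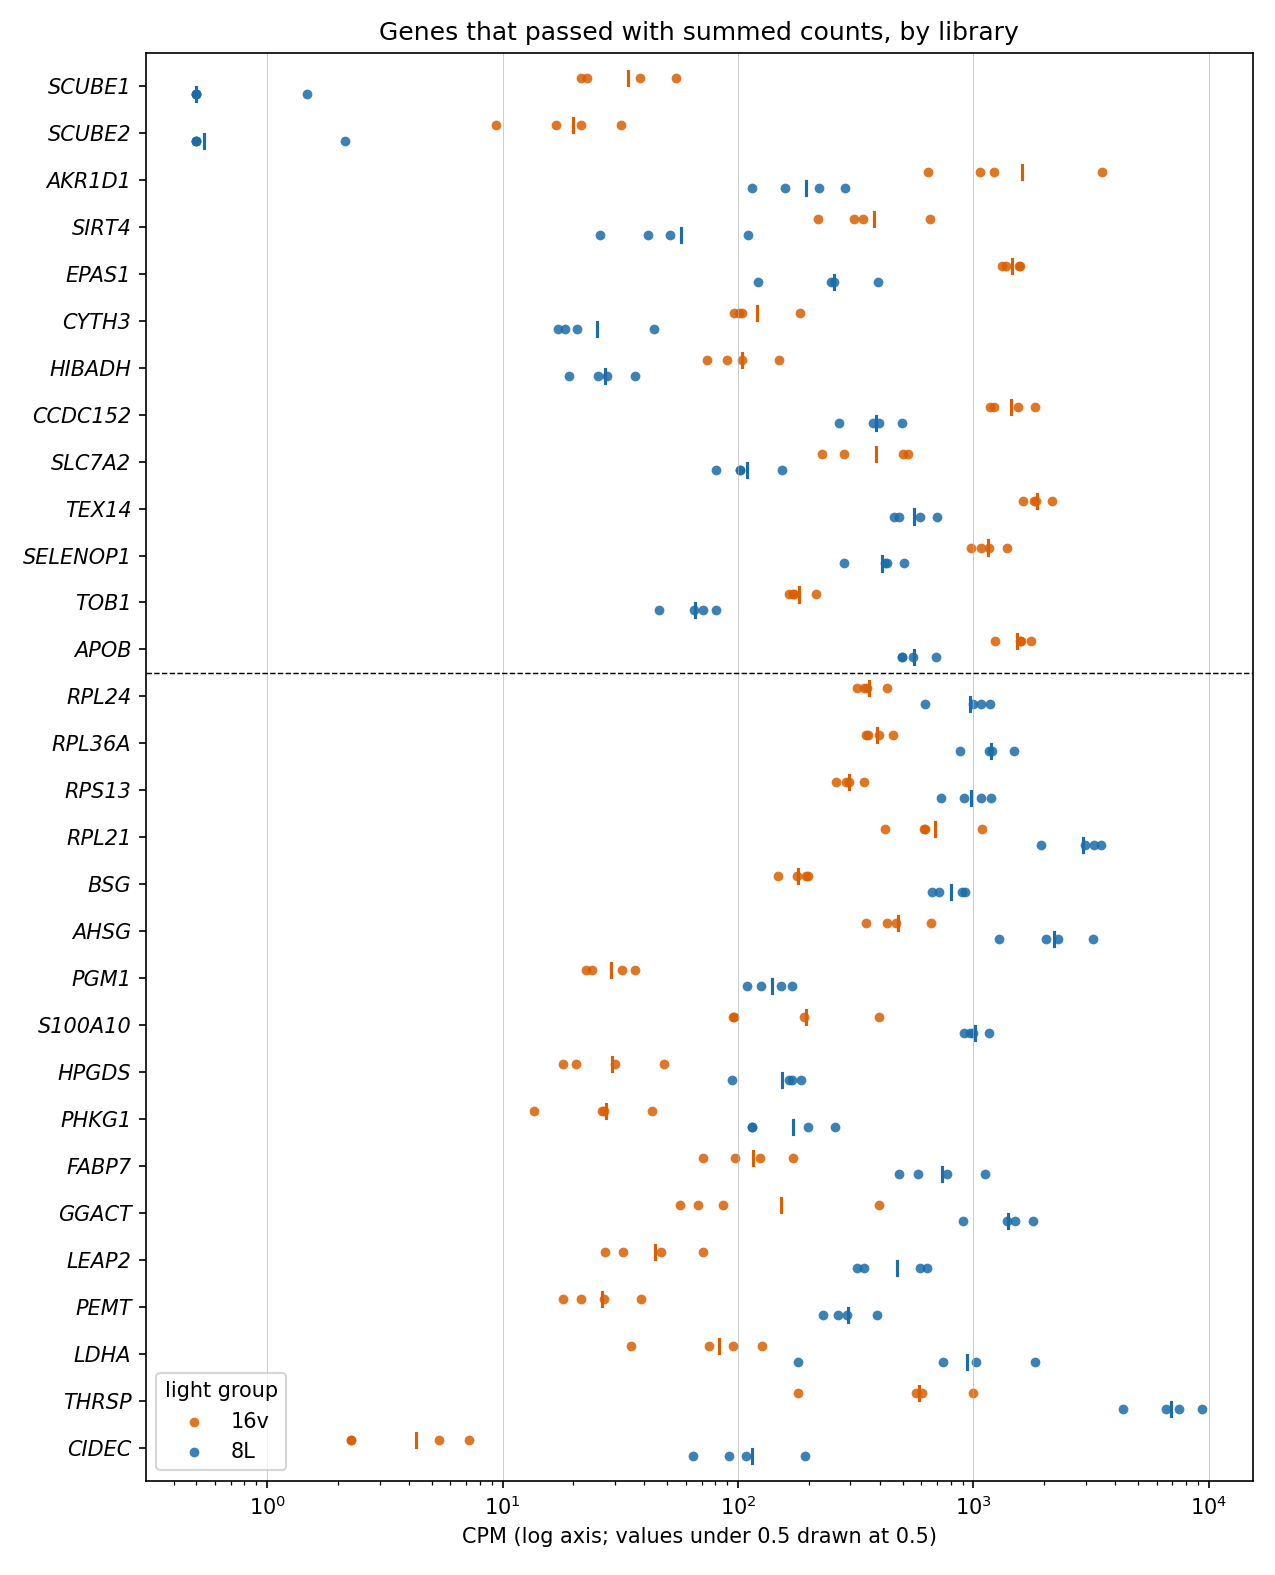
CPM (log axis) in each of the 4 libraries at 16v (orange, upper row of each gene) and the 4 at 8L (blue, lower row) for 30 genes with a symbol that passed with summed counts; vertical ticks are means. Genes above the dashed line are higher at 16v and those below it lower, and the groups overlap for none of them.

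The other genes that passed with summed counts have varied roles. TOB1, which restrains cell growth, had 215, 165, 171 and 173 CPM at 16v and 80.5, 46.2, 71 and 64.7 CPM at 8L, and rose by 1.46 ± 0.30 (adjusted p = 0.0431). CYTH3, an exchange factor for ARF GTPases, had 183, 95.7, 101 and 104 CPM at 16v and 20.7, 18.5, 17.2 and 44.1 CPM at 8L, and rose by 2.24 ± 0.44 (adjusted p = 0.0366). BSG, basigin, the membrane partner of lactate transporters, had 199, 148, 194 and 178 CPM at 16v and 670, 713, 925 and 891 CPM at 8L, and fell by 2.15 ± 0.45 (adjusted p = 0.0485). None of these overlapped between groups.

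S100A10, the partner of annexin A2, had 398, 95.7, 95.5 and 191 CPM at 16v and 999, 965, 912 and 1170 CPM at 8L, and fell by 2.38 ± 0.46 (adjusted p = 0.0366). TEX14, known from germ cell bridges in mice, had 1840, 1800, 1620 and 2160 CPM at 16v and 591, 459, 484 and 700 CPM at 8L, and rose by 1.73 ± 0.29 (adjusted p = 0.0241). Since both share their reads with loci without a symbol, which locus the reads come from is uncertain.

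A few genes passed from few reads. SCUBE1 and SCUBE2, secreted proteins with EGF repeats, had 24, 20, 16 and 32 counts and 14, 19, 7 and 14 counts at 16v, against 1 count each over the 8L libraries (adjusted p = 0.0241 and 0.0492). Both were tested with summed counts only, and their fold changes are not given since they rest on a near-zero level at 8L. Their counts are sums over 4 and 7 transcripts, 3.91 and 6.07 times those of the largest transcript. That transcript held 34 counts for SCUBE1 and 15 for SCUBE2 over 12 libraries, so the reads may be fewer than the counts.

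Among the remaining genes with the smallest p with 1 transcript only, PAPSS2, which makes the sulfate donor of sulfotransferases, had 602, 487, 518 and 554 CPM at 16v and 209, 175, 213 and 219 CPM at 8L (1.41 ± 0.31, adjusted p = 0.0143). The Golgi mannosidases MAN1A1 and MAN2A1, which trim N-glycans, were higher (1.60 ± 0.35 and 1.58 ± 0.34, both adjusted p = 0.0143). So were SLC17A5, a sialic acid transporter of lysosomes, CAND1, an exchange factor of ubiquitin ligases, IQGAP2, a scaffold protein, PAWR, SLC22A23 and CCZ1 (1.84 to 4.17). MIF, a cytokine, had 0 to 22.9 CPM at 16v and 150 to 208 CPM at 8L (-3.96 ± 0.75, adjusted p = 0.0122). YWHAE, a 14-3-3 protein, TSPO, of the outer mitochondrial membrane, COPZ1, of the coat of Golgi vesicles, and GIF were lower too (-4.29 to -2.50, each with adjusted p = 0.0122).

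Sums of markers of endothelial and stellate cells differed as well. Endothelial markers, all 21 in the table, summed to 242, 176, 226 and 276 CPM in 16v replicates 1 to 4, against 87.4, 96.9, 90.4 and 151 CPM in 8L replicates 1 to 4. The 26 of 28 stellate cell and matrix genes in the table summed to 1020 to 1470 CPM at 16v and 499 to 843 CPM at 8L. Neither sum overlapped between groups. With summed counts 0 of the 3 endothelial markers tested passed, and 0 of the 10 stellate and matrix genes. LYVE1 and PECAM1, 2 of the 3, overlapped between groups (adjusted p = 0.18 and 0.272). With 1 transcript 1 of 1 endothelial marker and 1 of 9 stellate and matrix genes passed, against 9.5% higher over all genes. With the ribosomal protein score 0 of them passed that way. CDH5, the cadherin of endothelium (1.53 ± 0.38, adjusted p = 0.0216), and RELN, of stellate cells (1.31 ± 0.40, adjusted p = 0.0402, groups overlapping), passed higher with 1 transcript only, and COL4A1, of basement membranes, did not (adjusted p = 0.141 and, with 1 transcript, 0.0513).

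Macrophage markers, 18 of 20 in the table with CD163 at 0 throughout, summed to 478 to 662 CPM at 16v and 425 to 1240 CPM at 8L. MRC1 and TIMD4, receptors on this marker list, passed higher and CD74, the class II invariant chain, lower with 1 transcript only (1.88 ± 0.48, 1.35 ± 0.38 and -2.87 ± 0.81, with adjusted p = 0.0232, 0.0343 and 0.0343). CD74 had 0 to 35 CPM at 16v, 43 to 71.5 CPM in 8L replicates 1 to 3 and 288 CPM in 8L replicate 4. This library also held the highest sum of lymphocyte markers, 572 CPM, against 76.7 to 129 CPM at 16v and 11.5 to 82.8 CPM in the other 8L libraries. The part of these cell types in the liver results was not tested.

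**Figure D5:**
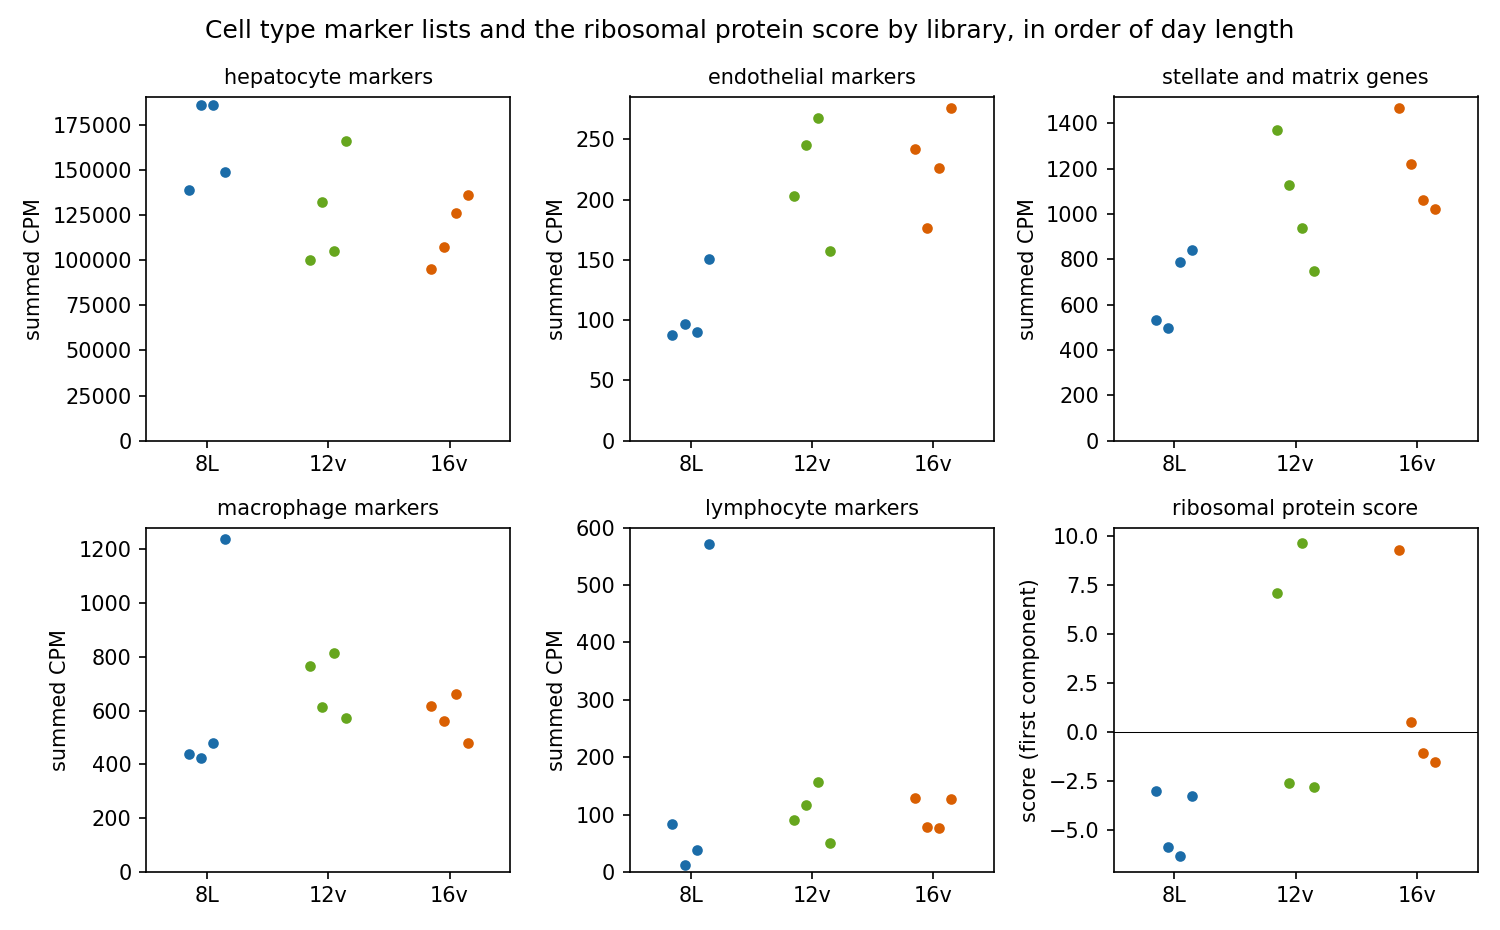
Summed CPM of 5 marker lists and the ribosomal protein score (first principal component of 69 genes) in each library, in order of day length. Hepatocyte sums at 16v, 95300 to 136000 CPM, lie below those at 8L, 139000 to 186000 CPM; endothelial sums, stellate and matrix sums and the score lie above.

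The 12-hour libraries show where 16v stands between day lengths. Comparisons of 16v and of 12v with 8L share the 8L libraries, so their likeness is no separate result. At 12v, 15 of 4532 genes passed against 8L with summed counts (0.331%; 5.42% with 1 transcript), and 10 of the 36 were among those that passed. THRSP averaged 6930 ± 2100, 710 ± 528 and 585 ± 332 CPM at 8, 12 and 16 hours, and EPAS1 255 ± 111, 1340 ± 628 and 1460 ± 130 CPM. APOB averaged 560 ± 93.5, 964 ± 137 and 1540 ± 217 CPM, AHSG 2200 ± 801, 1010 ± 443 and 477 ± 131 CPM, and CIDEC 114 ± 55.2, 21.5 ± 25.2 and 4.28 ± 2.44 CPM.

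The direct test of 16v against 12v passed 0 of the 36 (1 of all 4532 genes, or 0.0221%, and 0 of 2601 with 1 transcript). In 4 the unadjusted p was under 0.05: CIDEC (-2.42 ± 0.79), APOB (0.67 ± 0.26), AKR1D1 (1.33 ± 0.54) and AHSG (-1.07 ± 0.39), each with adjusted p = 0.999. The 36 were picked with the same 16v libraries, by their difference from the short photoperiod. A further step from 12v to 16v in the same direction was thus favoured in advance, and all 4 took it. These 4, and the graded averages of APOB, AHSG and CIDEC above, are therefore no separate result. The share of all genes at that unadjusted p in this contrast is not given here. For the 36 genes no difference between 12 and 16 hours passed in these libraries, of which 12v replicate 3 had 72125 counts.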

How the data were processed

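Liver RNA of 12 libraries, 4 each at 16v, 12v and 8L, was read as Nanopore cDNA. The authors deposited expected counts per transcript. The submitters' processing notes name minimap2 and Salmon, and the genome build is not given in the sources used here. Of the 46968 transcript accessions 0 were in the quail RefSeq annotation, and of the 11685 gene symbols 9933 were. Which reference the reads were mapped to is therefore uncertain, for genes with few counts as well. Of the deposited values 99.49% were whole within 1e-06. Values were rounded and summed over the transcripts of each of 14983 genes. Reads may stand on several transcripts, so 1 fixed transcript per gene was the other counting. Tests used edgeR 4.0.16 (quasi-likelihood, robust, R 4.3.3) with TMM factors and filterByExpr (minimum count 10, total 15) over all 12 libraries, with 9 residual degrees of freedom and Benjamini-Hochberg adjustment at 0.05; adjusted p in the text come from it, or from the same test in a fit named beside the value. The code was tested on simulated data. Alternatives were other scalings and filters, DESeq2 1.42.0, limma-voom 3.58.1, a replicate block, the 8 libraries alone, a ribosomal protein score as covariate, and leaving out libraries. Replicate numbers are shared by the groups but no label says what they mark. Named genes are all with a symbol that passed with summed counts, list members and the 10 genes in each direction of smallest adjusted p that passed with 1 transcript only, a fixed panel, and among the 3 members of smallest p in each list some that did not pass; a few genes that this rule names are not reported here. The members, lists and some alternatives were chosen with earlier results of these data known. Total counts ranged from 72125 to 867217, and floors cover counting error only. Levels are not compared between genes, since transcript lengths were not used here. Figures were drawn with matplotlib 3.10.9.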

Additional observations from a re-analysis of the deposited data

Results flagged for a closer look

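In groups of 4 libraries, 1 value can lie far from the other 3, and chance alone gives this in about 1 in 20 groups. It was seen 19 times in 332 groups checked. The groups are of named genes over the same libraries and are not independent, so their count cannot be weighed against that share. Most often the library apart was 16v replicate 1 or 8L replicate 4. For ESR1, SCUBE1 and SCUBE2 it rests on a difference of 1 count. Among 16v libraries, replicate 1 was apart for PDK4 (4.52 CPM, others 19.4 to 21.5), UQCRQ (398 CPM, others 602 to 634), ESR1 (0 CPM, others 1.14 to 1.34), RPL37 (19300 CPM, others 4410 to 5240), TOB1 (215 CPM, others 165 to 173) and CYTH3 (183 CPM, others 95.7 to 104). Replicate 2 at 16v was apart for PLIN2 (181 CPM, others 93.6 to 102) and GGACT (397 CPM, others 56.5 to 86.4), replicate 3 for CYP2C18 (84.8 CPM, others 6.84 to 18) and replicate 4 for MGST3 (199 CPM, others 88.2 to 102).

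Among 8L libraries, replicate 4 was apart for ACLY (2850 CPM, others 5820 to 6340), FGB (702 CPM, others 1300 to 1330), DIO3 (10.3 CPM, others 0), CYTH3 (44.1 CPM, others 17.2 to 20.7), SCUBE1 (1.47 CPM, others 0) and CD74 (288 CPM, others 43 to 71.5). Replicate 1 at 8L was apart for SULT1B1 (39.1 CPM, others 20.6 to 23.7) and RPS27 (640 CPM, others 1160 to 1190), and replicate 3 for SCUBE2 (2.15 CPM, others 0).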

How the results depend on the processing

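With summed counts 36 genes passed. The count was 33 with relative log expression factors, 52 without a count filter and 28 without near-identical loci. It was 88 with library size alone, 129 with a mean of at least 20 counts, 579 with DESeq2, 211 with limma-voom, 65 with the replicate block, 298 with the 16v and 8L libraries alone, 478 with 1 transcript per gene, 480 with the largest transcript per library, 3 with the ribosomal protein score, 125 without the 3 libraries that stand apart and 387 on the genes tested with 1 transcript. Leaving out 1 library gave 0 to 210. With 0 passed, unadjusted p was under 0.05 for 800 genes without 8L replicate 2, 807 without 8L replicate 3, 975 without 16v replicate 3 and 842 without 16v replicate 4. With 1 transcript the count was 110 with the score, 558 without the 3 libraries, 482 with relative log expression factors, 624 with library size alone, 589 with the replicate block, 426 without near-identical loci and 90 to 657 over the single libraries left out. Omitting a 16v library gave 265, 168, 403 and 262, a 12v library 550, 431, 598 and 657, and an 8L library 347, 90, 104 and 234, each for replicates 1 to 4. Same-numbered libraries are not shown to be pairs: their deviations correlated at 0.15, 0.07, 0.02 and 0.01. Of the 32 genes with a symbol among the 36, 0 reversed under those of the 44 alternatives that gave them a value. They were picked by their difference in these same libraries, and their groups do not overlap. A stable sign was thus favoured in advance and is no separate result.

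Signs turned for 9 named genes that had not passed, and the cause was not tested. CYP7A1 was -0.07 without 8L replicate 1 and -0.29 without 16v replicate 2 (-0.16 with 1 transcript), and at most 0.59 with 1 library left out. PCK1 was -0.07 without 8L replicate 1 and -0.14 without 8L replicate 4, and at most 2.17. CPT1A was 0.17 with library size alone, 0.01 with 1 transcript, 0.00 with the largest transcript, 1.27 with the score, 0.33 without the 3 libraries and -0.77 to 0.32 with 1 library left out; with 1 transcript it was 0.38 with library size alone, 1.05 with the score, 0.33 without the 3 libraries and, omitting 1 library, 0.36 (16v replicate 1), 0.23 (16v replicate 2), 0.03 (12v replicate 1), 0.06 (12v replicate 3) and 0.42 (8L replicate 2). PPARA was -0.01 with relative log expression factors, -0.00 with DESeq2 and -0.09 to 0.31 with 1 library left out. ALB was 0.00 with library size alone and 0.21 with the score (0.08 with 1 transcript). THRB was 0.18 with library size alone, and -0.31 to 0.20 with 1 library left out. GHR was 0.20 with the score (0.19 with 1 transcript). IGFBP2 was -0.04 to 0.80 with 1 library left out. PPARG was -0.27 with the score, -0.15 without the 3 libraries, and -0.23 to 0.63 with 1 library left out. Depth limits genes with few reads, most of all in 12v replicate 3.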
